A study of Mus musculus with 6 samples.

Results

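The genes examined were 8 members of the PI3K and mTOR pathway: Pik3ca and Pik3cd, Tsc1, Tsc2 and Rheb, Mtor and Rptor, and Ddit4. They were chosen by name from 37273 annotated nuclear genes, and all 8 were found in the GENCODE annotation of mm9. For each, reads were counted over the gene body, from the first transcription start site (TSS) to the last transcription end, and over the promoter, the 5 kb upstream of the TSS. The series profiled acetylation of lysine 5 of histone H4 (H4K5ac) by chromatin immunoprecipitation and sequencing in the hippocampus of C57/BL6 mice aged 6 months. The FC group was trained by contextual fear conditioning, in which a chamber is paired with a foot shock, and the CON group was exposed to the same context without a shock. Each group gave 1 H4K5ac-ChIP library, 1 mock IgG-IP library and 1 input library of unprecipitated DNA, all from whole hippocampus. The animals were males, and those of both groups were killed soon after a memory test, according to the study's methods. With 1 library per group and antibody there was no replicate, so no difference below has a test across animals. All intervals are exact 95% intervals that cover counting error only.

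PI3K phosphorylates membrane phosphoinositides in response to receptors, and the product recruits the kinase AKT. AKT phosphorylates the TSC complex, whose TSC2 subunit switches off the small GTPase RHEB, and RHEB in its active form switches on the kinase mTOR in the complex mTORC1. In neurons mTORC1 promotes the local protein synthesis on which lasting synaptic change depends, and H4K5ac is a mark of open, transcribed chromatin.

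The libraries held from 14549689 reads (FC IgG-IP) to 45673239 reads (FC input), and the H4K5ac-ChIP libraries held 31605738 (FC) and 35962226 (CON) reads. The read density of a region is given as RPKM, the reads per kb of region scaled to 1000000 reads in the library. The FC and CON input libraries differed with GC content, and the median log2 ratio of FC over CON input across protein-coding gene bodies was 0.32. Marker genes chosen for the tissue check did not separate cleanly by H4K5ac. The FC gene body medians were 0.671 RPKM for the 4 excitatory neuron markers, 0.686 for the 4 astrocyte markers, 0.707 for the 4 oligodendrocyte markers and 0.569 for the 5 microglia and leukocyte markers. Some markers differed between the groups by more than a log2 ratio of FC over CON of 0.32. Of those of inhibitory neurons, with medians of 0.558 in FC and 0.349 in CON, Gad2 had 0.39 and Slc32a1 1.03 (88 and 49 reads), with input ratios of -0.11 and 0.49, and Gad1 was just short of it with 0.31. The excitatory marker Prox1 had 0.35 (1270 and 1134 reads), with an input ratio of 0.21, and of the genes of other tissues Alb had -0.34 and Apoa1 0.34. The part of this in the comparisons of the groups below was not tested. The 6 genes of other tissues had a median of 0.440 and a range of 0.183 to 1.16 that overlapped every brain list, so gene body H4K5ac does not by itself show the cell make-up of the sample. In whole tissue, fewer cells that carry the mark and less mark per cell cannot be told apart.

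The DNA at the starts of these genes differed widely in CG dinucleotides, the units of CpG islands. RefSeq promoter windows of 300 bases, from 250 bases before to 50 after each start, were taken from a table of build GRCm38.p6. All 10 windows of the 8 genes matched mm9 exactly at 1 place, and their mm9 positions are given. The window with the fewest CG dinucleotides, 4, is not among those printed below. Those printed hold 6 to 47 and were chosen for that spread and for the H4K5ac values described next. Each is written 5′ to 3′ on the strand of its gene, and capitals mark CG dinucleotides.
Pik3cd, the second start, chr4:149072768-149073067, minus strand: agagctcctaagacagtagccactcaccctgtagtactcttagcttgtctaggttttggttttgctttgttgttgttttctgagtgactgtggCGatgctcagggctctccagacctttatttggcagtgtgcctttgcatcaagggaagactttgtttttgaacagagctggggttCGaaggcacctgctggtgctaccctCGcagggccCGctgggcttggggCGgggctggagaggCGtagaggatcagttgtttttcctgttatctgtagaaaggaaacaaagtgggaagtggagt
Pik3cd, the third start, chr4:149050149-149050448, minus strand: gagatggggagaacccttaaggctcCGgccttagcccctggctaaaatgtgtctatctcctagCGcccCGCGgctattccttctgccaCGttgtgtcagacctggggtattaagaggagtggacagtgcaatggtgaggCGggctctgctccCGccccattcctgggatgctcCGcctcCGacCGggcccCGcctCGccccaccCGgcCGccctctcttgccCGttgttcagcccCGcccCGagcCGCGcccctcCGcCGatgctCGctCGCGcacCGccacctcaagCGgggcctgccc
Tsc1, chr2:28496503-28496802, plus strand: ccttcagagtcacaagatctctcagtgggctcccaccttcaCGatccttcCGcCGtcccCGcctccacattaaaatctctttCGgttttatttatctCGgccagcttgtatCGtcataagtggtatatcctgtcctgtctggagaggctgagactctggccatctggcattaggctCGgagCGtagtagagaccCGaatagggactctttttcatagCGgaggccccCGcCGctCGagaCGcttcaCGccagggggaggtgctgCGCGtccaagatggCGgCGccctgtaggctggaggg
Ddit4, chr10:59414469-59414768, minus strand: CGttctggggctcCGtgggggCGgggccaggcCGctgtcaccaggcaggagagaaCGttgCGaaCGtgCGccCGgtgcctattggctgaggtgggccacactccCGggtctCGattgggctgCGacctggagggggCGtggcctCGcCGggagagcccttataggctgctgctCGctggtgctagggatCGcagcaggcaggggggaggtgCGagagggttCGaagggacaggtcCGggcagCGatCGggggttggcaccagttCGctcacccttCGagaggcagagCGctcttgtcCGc
Rheb, chr5:24348130-24348429, minus strand: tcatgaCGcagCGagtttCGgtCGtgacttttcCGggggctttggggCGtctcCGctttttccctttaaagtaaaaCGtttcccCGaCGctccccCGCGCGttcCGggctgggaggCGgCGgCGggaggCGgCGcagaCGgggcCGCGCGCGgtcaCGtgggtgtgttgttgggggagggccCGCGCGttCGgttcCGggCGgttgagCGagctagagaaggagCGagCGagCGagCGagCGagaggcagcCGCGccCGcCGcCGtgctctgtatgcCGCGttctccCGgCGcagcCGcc

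The Rheb window held 47 CG dinucleotides, against a median of 7 over the 32851 promoters of the table. The Ddit4 window and that at the third start of Pik3cd held 26 each, the Tsc1 window 20 and the window at the second start of Pik3cd 6. H4K5ac-ChIP reads over these same 300 bases, FC and CON added, numbered 5 at Rheb, 5 at Ddit4 and 6 at the third start of Pik3cd. They numbered 29 at the second start of Pik3cd and 35 at Tsc1. The windows with 26 or more CG dinucleotides that are printed here thus had few reads on the start itself, but input reads were also few there, with 4 at Rheb, 7 at Ddit4 and 7 at the third start of Pik3cd, against 11 at each of the others. Over all 22367 protein-coding genes, windows of the same size had a median of 9 H4K5ac-ChIP reads and 6 input reads where they held 20 or more CG dinucleotides, 16 and 12 where they held 10 to 19, and 8 and 12 where they held under 10. The other members ranged from 12 H4K5ac-ChIP reads at the most downstream of the 3 Pik3cd windows, which held 4 CG dinucleotides, to 28 at Rptor, which held 13. The Tsc2 window, which is not printed, held 29 CG dinucleotides and 22 reads, so not every window with 26 or more had few reads. Input counts also differed between the windows, from 4 to 26, and their part in these values was not tested.

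The windows were searched on both strands for the words TGACGTCA (the cAMP response element, CRE), CACGTG (an E-box), GTAAACA (a FOXO word) and for the glucocorticoid response element. The only match in the 10 windows was an E-box at Rheb, at bases 155 to 160 of the sequence above, where it starts 96 bases before the start site. An E-box was present in 7.15% of all 32851 promoters, the CRE in 1.79%, the FOXO word in 3.65% and the glucocorticoid element in 0.475%. These are matches of letters and not measured binding.

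Of the PI3K catalytic subunits, Pik3ca encodes the widely expressed p110-alpha subunit, and Pik3cd encodes p110-delta, best known from leukocytes and also present in neurons. Over the 70.8 kb Pik3ca gene body (chr3:32296593-32367408, plus strand) the density was 0.656 RPKM (0.623 to 0.690) in FC H4K5ac-ChIP and 0.701 (0.669 to 0.735) in CON. Its IgG-IP density was 0.423 in FC and 0.389 in CON, and its input density was 0.464 and 0.456. Both H4K5ac-ChIP libraries thus lay above all 4 control libraries at Pik3ca. Over the 53.4 kb Pik3cd gene body (chr4:149023277-149076680, minus strand) the H4K5ac-ChIP density came to 0.642 (0.604 to 0.681) in FC and 0.578 (0.545 to 0.614) in CON. Its IgG-IP density was 0.304 and 0.329, and its input density was 0.633 in FC and 0.389 in CON. At Pik3cd the FC H4K5ac-ChIP library and the FC input library therefore overlapped within their counting intervals. In the promoter, Pik3cd had the lowest H4K5ac-ChIP density of the 8 genes, with 0.500 RPKM (79 reads) in FC and 0.473 (85 reads) in CON, at percentiles 43.4 and 41.8 of protein-coding promoters. Pik3ca had 0.589 (93 reads) in FC and 0.712 (128 reads) in CON.

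In the TSC complex, Tsc1 encodes hamartin, which stabilises the complex, Tsc2 encodes tuberin, which carries the GTPase-activating domain, while Rheb encodes the GTPase on which the complex acts. Tsc1 (chr2:28496748-28546687, plus strand) had a gene body H4K5ac-ChIP density of 0.773 RPKM (0.730 to 0.818) in FC and 0.737 (0.697 to 0.777) in CON, against 0.351 and 0.367 in IgG-IP and 0.592 and 0.423 in input. Tsc2 (chr17:24732882-24769574, minus strand) had 0.897 (0.843 to 0.953) in FC and 0.850 (0.801 to 0.901) in CON, against 0.365 and 0.355 in IgG-IP and 0.652 and 0.445 in input. Rheb (chr5:24308641-24348442, minus strand) had 0.747 (0.700 to 0.797) in FC and 0.794 (0.749 to 0.842) in CON, against 0.414 and 0.387 in IgG-IP and 0.501 and 0.435 in input. At all 3 genes the H4K5ac-ChIP libraries of both groups were above every control library. The Tsc2 promoter was the densest of the 8 in both groups. It had 1.19 RPKM (188 reads) in FC and 1.22 (220 reads) in CON, at percentiles 96.7 and 98.5 of protein-coding promoters. Its 5 kb upstream overlap Nthl1, a DNA repair gene whose start lies next to that of Tsc2, and the reads of the neighbours cannot be told apart there. Tsc1 had 1.10 RPKM (174 reads) in FC and 0.945 (170 reads) in CON. Rheb had 0.658 RPKM (104 reads) in FC and 0.957 (172 reads) in CON with intervals of 0.538 to 0.797 and 0.819 to 1.11. These did not overlap, which held for 1 of the 8 promoters and for 3.01% of protein-coding promoters with 50 reads or more.

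In mTORC1, Mtor encodes the kinase and Rptor encodes raptor, the subunit that brings substrates to it. Ddit4 encodes REDD1, an inducible inhibitor that acts through the TSC complex under low oxygen and glucocorticoids. Mtor (chr4:147822720-147931792, plus strand) had a gene body density of 0.942 RPKM (0.909 to 0.975) in FC H4K5ac-ChIP and 0.821 (0.793 to 0.850) in CON, against 0.371 and 0.400 in IgG-IP and 0.625 and 0.445 in input. Rptor (chr11:119464219-119760890, plus strand), at 297 kb the longest member, had 1.01 (0.992 to 1.03) in FC and 0.983 (0.964 to 1.00) in CON, against 0.354 and 0.390 in IgG-IP and 0.652 and 0.459 in input. Mtor and Rptor were thus above all 4 controls in both groups. Angptl7 lies within the Mtor gene body, and its reads cannot be told apart from those of Mtor. Ddit4 (chr10:59412423-59414518, minus strand) spans only 2.10 kb, and its gene body held 39 FC and 37 CON reads of H4K5ac-ChIP, 0.589 RPKM (0.419 to 0.805) and 0.491 (0.346 to 0.677). Its IgG-IP libraries held 5 and 7 reads and its input libraries 38 and 18. The Ddit4 promoter held far more, with 182 reads in FC and 208 in CON, 1.15 and 1.16 RPKM, at percentiles 95.9 and 97.6. Against them stood 13 and 17 reads in IgG-IP and 96 and 55 in input. Mtor had 143 promoter reads in FC and 171 in CON, 0.905 and 0.951 RPKM, and Rptor had 118 and 138, 0.747 and 0.767 RPKM.

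Ordered by gene body density, Rptor was highest and Ddit4 lowest in both groups. Rptor did not overlap the next gene in either group, which was Mtor in FC and Tsc2 in CON. In FC the order then ran Mtor, Tsc2, Tsc1, Rheb, Pik3ca, Pik3cd and Ddit4, and intervals overlapped between Mtor and Tsc2, between Tsc1 and Rheb, and between each of the last 3. In CON it ran Tsc2, Mtor, Rheb, Tsc1, Pik3ca, Pik3cd and Ddit4, and every pair of neighbours overlapped except Pik3ca and Pik3cd. The medians over protein-coding genes were 0.549 RPKM in FC and 0.541 in CON, so Ddit4 in CON was the only gene body value of the 16 below its median.

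**Figure D1:**
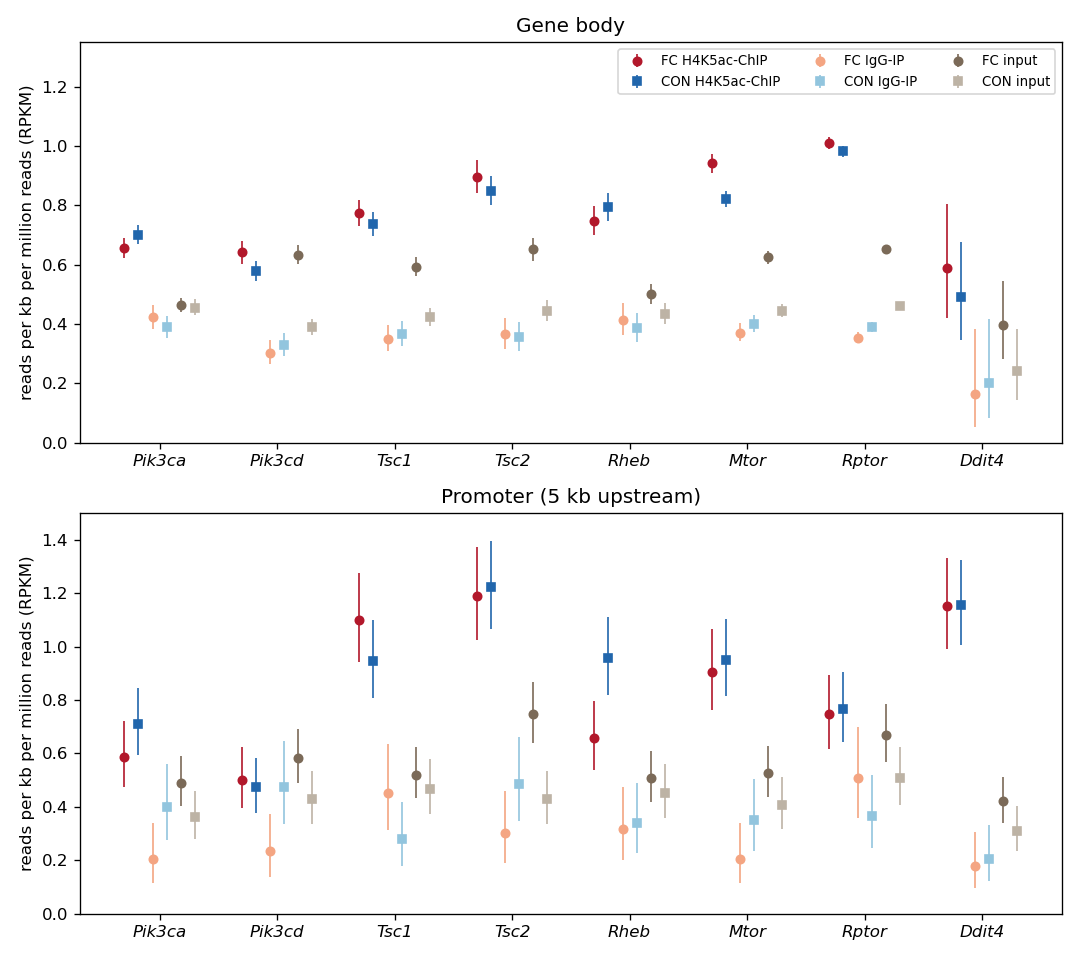
Read density (RPKM) of the 8 genes over the gene body (top) and the promoter (bottom) in each of the 6 libraries, with exact 95% Poisson intervals as bars. H4K5ac-ChIP points lie above the IgG-IP points of the same group at every gene body, and at every promoter except Pik3cd in CON, where both are 0.473. Rheb is the promoter at which the FC and CON H4K5ac-ChIP bars do not overlap.

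H4K5ac-ChIP over the mock precipitation was read as the log2 ratio of RPKM, called where it reached 1.5-fold and at least 50 reads were counted in the pair of libraries. Over gene bodies, all 7 members with enough reads were called in FC, where 58% of protein-coding genes were called, and all 7 in CON, where 53.7% were called. The log2 ratio was 1.52 in FC and 1.33 in CON for Rptor, 1.34 and 1.04 for Mtor and 1.30 and 1.26 for Tsc2. It was 1.14 and 1.01 for Tsc1, 0.85 and 1.04 for Rheb, 1.08 and 0.81 for Pik3cd and 0.63 and 0.85 for Pik3ca. Rptor was therefore the most enriched of these, at percentiles 88.4 and 89.5 of protein-coding genes, and Pik3ca in FC the least, at percentile 44.6. Ddit4 had too few gene body reads for a call, 39 against 5 in FC and 37 against 7 in CON, with log2 ratios of 1.84 (0.50 to 3.54) and 1.28 (0.09 to 2.69). GC-rich genes had higher ratios in general. After the median of genes of like GC content was taken off, the 7 ratios ran from 0.04 (Tsc2) to 0.64 (Rptor) in FC and from -0.027 (Pik3cd) to 0.61 (Rptor) in CON, and of these Rptor was past 1.5-fold, where 12.2% of protein-coding genes were in FC and 10.3% in CON.

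Over promoters, Ddit4 was the most enriched member in both groups, 2.69 (1.88 to 3.62) on the log2 scale over IgG-IP in FC and 2.49 (1.77 to 3.30) in CON, at percentiles 99.7 and 99.8. Less the median of promoters of like GC content it was still 1.55 and 1.53. Mtor followed in FC with 2.13 and had 1.44 in CON, and Tsc2 had 1.98 and 1.34. Of the 8 promoters 7 were called in FC, where 58.8% of protein-coding promoters were called, and 7 in CON, where 53.4% were called. The exceptions were Rptor in FC, with 0.55, and Pik3cd in CON, with -0.00 (-0.56 to 0.59). The Pik3cd promoter held 17 IgG-IP reads in FC and 39 in CON, while its H4K5ac-ChIP densities were close, 0.500 and 0.473 RPKM. Its ratio over IgG-IP of 1.10 in FC thus came mainly with fewer mock reads. The mock libraries themselves differed at promoters. Of the 5 members with 50 or more IgG-IP reads, Pik3cd (-1.02) and Tsc2 (-0.68) were lower in FC and Tsc1 (0.70) and Rptor (0.48) higher, past a log2 limit of 0.32, where 26.2% of protein-coding promoters were lower and 19% higher.

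Against input, the gene bodies of the members were less enriched in FC than in CON. Of these 2 of 8 were called in FC, Mtor and Rptor, where 23.9% of protein-coding genes were called, and 7 of 8 in CON, all but Pik3cd, where 44.5% were called. Rptor had a log2 ratio of 0.63 in FC and 1.10 in CON, and Pik3cd had 0.02 (-0.09 to 0.13) and 0.57 (0.44 to 0.71). Input densities moved with this. The FC input library held 0.464 to 0.652 RPKM over the 7 longer gene bodies, and the CON input library 0.389 to 0.459. After the like-GC median was taken off, the log2 ratios ran from -0.14 to 0.45 in FC and from -0.09 to 0.53 in CON, lowest at Pik3cd and highest at Rptor in both, and no member stayed past 1.5-fold, where 8.8% of protein-coding genes were in FC and 8.14% in CON. The count in FC depended on the processing, with 6 called when totals were taken outside the 10% of 10-kb windows with the most reads and 1 with 1 read per position and strand. Other totals shift the ratio of every gene alike. The share of protein-coding genes called was not counted at these settings, so the change is not a result about the members. Among promoters 4 were called in FC (Ddit4, Tsc1, Mtor and Tsc2; 30.2% of all) and 7 in CON (all but Pik3cd; 44.2% of all). Ddit4 again had the highest promoter ratio, 1.45 in FC and 1.90 in CON. At the Tsc1 promoter the ratio was not lower in FC, with 1.08 against 1.02 in CON.

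Along the genes, the place of the densest H4K5ac-ChIP window relative to the TSS differed between members. Windows of 1 kb were moved in steps of 250 bp over each gene and its promoter, and the window with the most reads, FC and CON added, lay within 2 kb of an annotated start for 3 members: Ddit4, Tsc1 and Tsc2. For Ddit4 it was centred 1.65 kb upstream of the start (58 reads in FC, 54 in CON), for Tsc2 1.56 kb upstream (52 and 66) and for Tsc1 0.501 kb upstream (52 and 41). In the other 5 it lay inside the gene. For Rptor it was centred 192.5 kb from the first start, in an intron 3.37 kb from the nearest internal start (75 reads in FC, 70 in CON). For Pik3cd it was 52.2 kb from the first start, over an exon near the end of the gene (52 and 48). For Rheb, Mtor and Pik3ca it was 24.6, 21.7 and 19.5 kb from the start. The place depended on the size of the window, and a longer gene offers more windows far from a start. Tsc2 moved to 34.9 kb from its start with windows of 500 bp and to 34.2 kb with those of 2 kb, and Tsc1 to 46.2 kb with those of 2 kb, which left 2 and 1 members with the window near a start.

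Around its start Ddit4 showed a trough. In the 4 bins of 1 kb from 5 to 1 kb upstream it had 35 to 49 reads of H4K5ac-ChIP for FC and 32 to 56 for CON. In the bin just downstream of the start it had 15 in FC and 14 in CON, and from 3 to 4 kb downstream, beyond the end of this short gene, 53 and 63. The signal at Ddit4 was thus higher on both flanks than on the gene, in both groups alike, while input had 16 and 12 reads in the bin after the start and 15 to 21 and 9 to 17 in those upstream bins. In the bin from 3 to 4 kb downstream input had 27 and 20 reads, so it was also higher on that flank than after the start. Tsc1 had 52 reads in FC and 41 in CON in the bin just upstream of its start, and 20 and 26 in the bin after it. That upstream bin was the highest of the 10 in FC but not in CON, where the bin from 1 to 2 kb downstream had 44. When gene bodies were cut into 10 equal parts, the last part was the densest in both groups for Tsc2, with 1.52 RPKM in FC and 1.30 in CON, and for Pik3cd, with 1.11 and 1.02. The lowest part of Pik3cd had 0.249 and 0.281 RPKM, and the lowest part of Tsc2 0.388 and 0.477. These parts are shorter than whole gene bodies, so their range was not compared with that of the gene bodies. The end of Tsc2 overlaps that of Pkd1, which lies on the opposite strand, and strand was not used in counting.

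**Figure D2:**
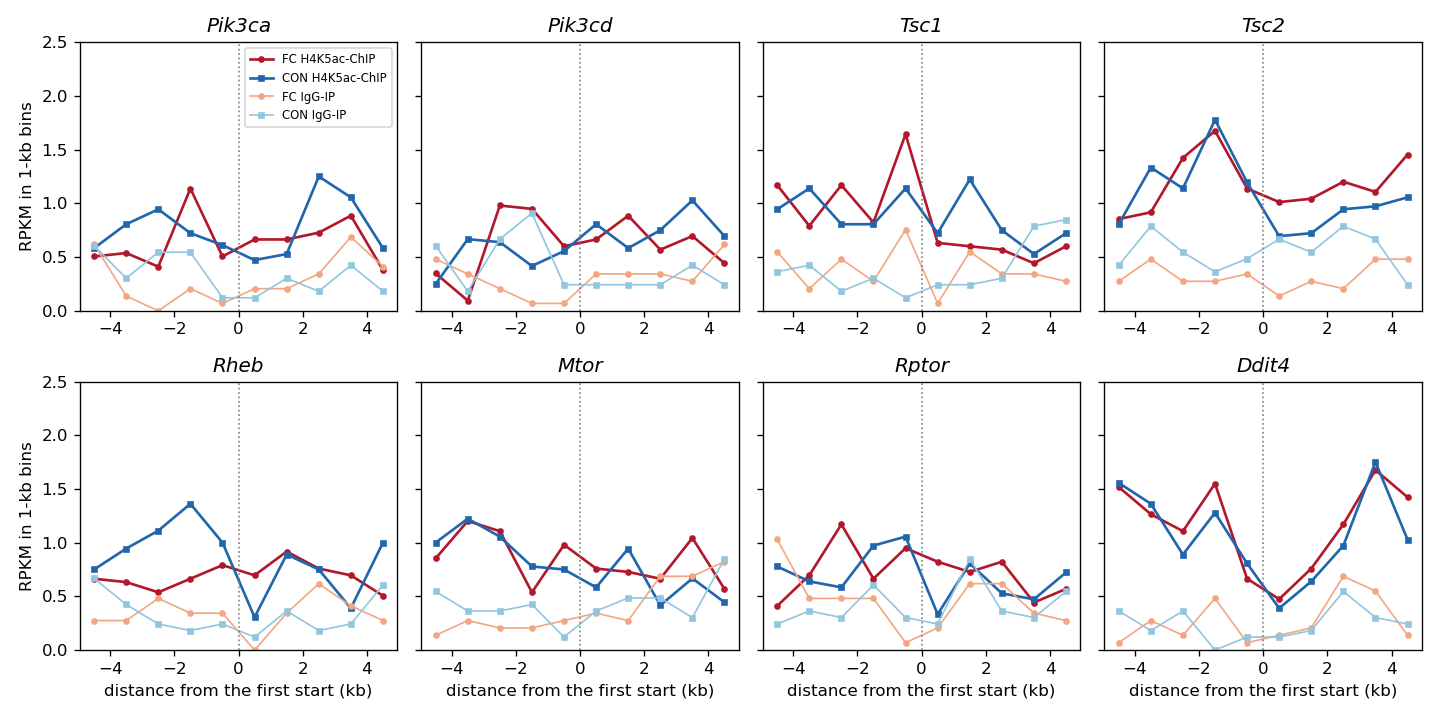
H4K5ac-ChIP and IgG-IP density (RPKM) in 1-kb bins from 5 kb before to 5 kb after the first annotated start of each gene, the start at 0 and transcription to the right. Ddit4 has a trough at the start in both groups, with 15 and 14 reads in the first kb downstream, and Rheb has more CON than FC signal from 4 kb upstream to the start.

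The comparison of FC with CON asked whether these genes held a larger or smaller share of the H4K5ac-ChIP reads after fear conditioning. Each library was scaled to its own total, so a rise or fall of H4K5ac over the whole genome would not show here. By immunoblot the study reported a higher H4K5ac level after the memory test than in controls. Those blot controls were taken after context exposure on the first day, so the blot did not measure the same contrast as FC over CON here. Over gene bodies 0 of 8 members were called in either direction. The call was a log2 ratio of at least 0.32, higher or lower. Over protein-coding genes 8.98% were called higher in FC and 3.08% lower. The log2 ratio of FC over CON was 0.20 (0.13 to 0.27) for Mtor, 0.15 (0.03 to 0.27) for Pik3cd, 0.08 (-0.05 to 0.20) for Tsc2 and 0.07 (-0.04 to 0.18) for Tsc1. It was 0.04 (0.00 to 0.08) for Rptor, -0.09 (-0.21 to 0.04) for Rheb and -0.10 (-0.20 to 0.00) for Pik3ca. Ddit4 had 0.26 (-0.42 to 0.95), which its 39 and 37 reads cannot tell from no difference. The median of the 8 was 0.07, and that of protein-coding genes 0.04. Mtor stood at percentile 80.4 of protein-coding genes, and Pik3ca at percentile 21.6, the extremes of the 7 longer members.

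The control libraries differed between the groups as well. In IgG-IP the log2 ratios of the 7 members with enough reads ran from -0.14 (Rptor) to 0.12 (Pik3ca), and none was called, where 4.92% of protein-coding genes were called higher and 11.3% lower. In input 6 of 8 members were called higher in FC and none lower, where 49.7% of protein-coding genes were called higher and 10.2% lower. The log2 ratios were 0.71 for Ddit4, 0.70 for Pik3cd, 0.55 for Tsc2, 0.51 for Rptor and 0.49 for Mtor and Tsc1. Rheb had 0.20 and Pik3ca 0.03. Input moved with GC content, which was highest at Ddit4 (57.8%) and lowest at Rheb (43.1%) and Pik3ca (41.4%). Genes of like GC content had input medians of 0.73 for Ddit4, 0.18 for Rheb and -0.01 for Pik3ca. Less the like-GC median, the H4K5ac-ChIP ratios ran from -0.10 (Rheb) to 0.11 (Mtor) with a median of -0.0088 in place of 0.07, and Tsc2 and Rptor turned from 0.08 and 0.04 to -0.04 and -0.03. When the input ratio was taken off instead, all 8 values were negative, from -0.12 (Pik3ca) to -0.55 (Pik3cd), and 5 members passed the limit as lower in FC: Pik3cd, Tsc2, Rptor, Ddit4 and Tsc1. On that scale 43% of protein-coding genes were lower and 9.41% higher. When the IgG-IP ratio was taken off, 1 member with enough reads in the H4K5ac-ChIP pair passed it as higher, Ddit4, with 0.57 from 5 and 7 IgG-IP reads, where 22.9% of protein-coding genes were higher and 8.36% lower. The direction of the group difference therefore depended on the control at 6 of these gene bodies, while Pik3ca and Rheb were negative with all reads, less input and less IgG-IP. With single libraries the group and the library cannot be told apart.

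**Figure D3:**
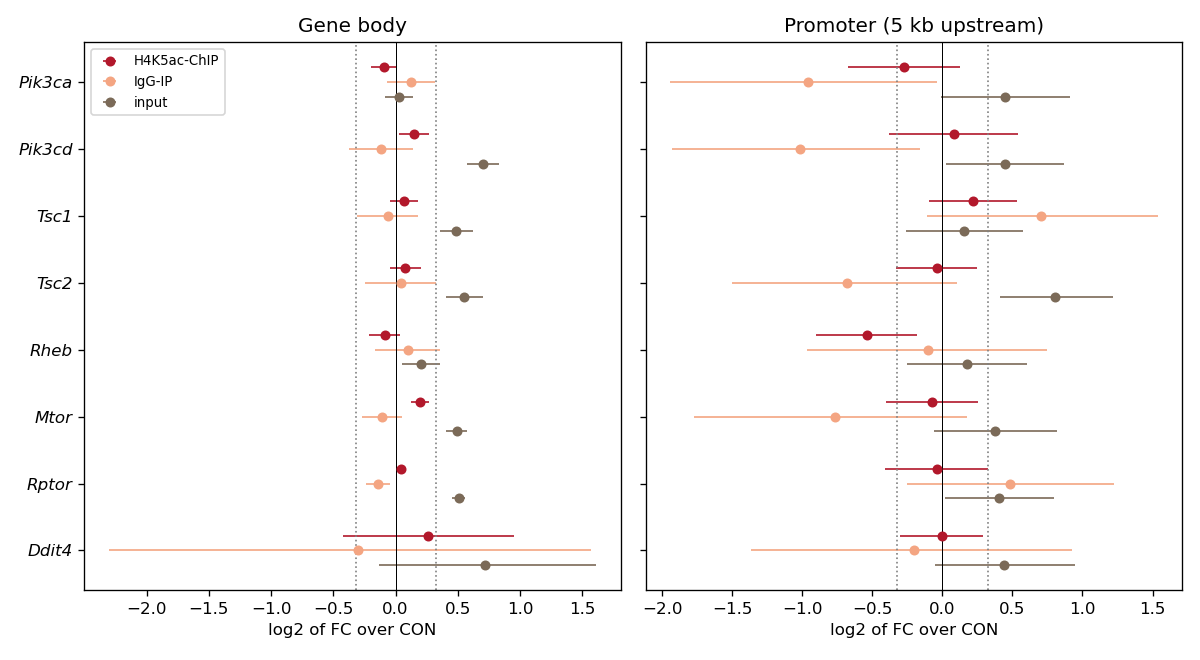
Log2 ratio of FC over CON for H4K5ac-ChIP, IgG-IP and input over the gene body (left) and the promoter (right) of each gene, with exact 95% binomial intervals as bars and dotted lines at the log2 limit of 0.32. H4K5ac-ChIP gene body ratios lie between -0.10 and 0.26, while input ratios reach 0.71, and the Rheb promoter is the only H4K5ac-ChIP value past a dotted line.

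In promoters, Rheb alone was called, with a smaller share of the H4K5ac-ChIP reads in FC. Its 5 kb upstream held 104 FC and 172 CON reads of H4K5ac-ChIP, a log2 ratio of -0.54 (-0.90 to -0.18), where 9.06% of protein-coding promoters were called lower and 15.4% higher. The ratio lay at percentile 2.35 of protein-coding promoters. The IgG-IP libraries held 23 and 28 reads there and the input libraries 116 and 80, with log2 ratios of -0.10 and 0.17. Input was called higher in FC at 6 other members' promoters out of 7, all but Tsc1, where 43.2% of protein-coding promoters were called higher and 14.9% lower. The Rheb difference was largest in the bins from 3 to 1 kb upstream, where FC had 17 and 21 reads and CON 40 and 49. In the bin after the start it was the other way, with 22 reads in FC and 11 in CON. In those upstream bins input had 13 and 29 reads in FC and 18 and 16 in CON, lower in FC in the first of them and higher in the next. The remaining promoters had log2 ratios from -0.27 (Pik3ca) to 0.22 (Tsc1), and the interval of each included 0. With promoters of 2 kb the calls changed, and Pik3cd (0.68) and Tsc1 (0.38) passed the limit as higher while Rheb (-0.68) and Rptor (-0.37) passed it as lower, where 24.9% of protein-coding promoters of that length were higher and 12.3% lower.

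Several members have more than 1 annotated start. Starts within 1 kb of each other were joined, which gave 4 start groups for Pik3cd, 5 for Rptor, 2 each for Pik3ca, Tsc1 and Rheb, and 1 for the rest. Within 1 kb on either side, the interval of the FC over CON ratio left out 0 at 2 of the 18. Around the first start of protein-coding genes with 50 reads or more it left out 0 at 15%. The third start of Pik3cd, 26.5 kb into the gene and at the CG-rich internal window printed above, had 63 FC and 34 CON reads of H4K5ac-ChIP, a log2 ratio of 1.08 (0.45 to 1.72). The 300 bases printed above held 2 and 4 of these, so the reads lay in the flanks. The IgG-IP libraries had 5 and 9 reads there and the input libraries 40 and 23, 0.438 and 0.324 RPKM of input, which was also higher in FC. The other Pik3cd starts had 40 and 48 reads at the first, 38 and 60 at the second and 40 and 36 at the fourth, each with an interval that included 0. The second start of Rheb, 28.7 kb into the gene, had 42 reads in FC and 72 in CON, a log2 ratio of -0.59 (-1.18 to -0.02). It had 16 and 14 IgG-IP reads and 42 and 44 input reads, 0.460 and 0.620 RPKM of input, so input was also lower in FC there. Both were singled out after their values were seen, and neither has a replicate.

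In fixed 1-kb windows with at least 20 reads, 19 of 693 over the 8 genes and their promoters were at least 2-fold higher in FC, which is 2.74%, and 13 were at least 2-fold lower, 1.88%. Over the genome 4.31% of such windows were higher and 5.7% lower, so both shares lay below those of the genome. Windows with more reads pass 2-fold less often through counting error, and read numbers were not matched in this comparison. With 1 read kept per position and strand, 10 windows of the members were higher and 9 lower, where 2.85% and 3.89% of genome windows were. With all reads, Mtor had 8 of the higher windows and no lower one among 115 tested, and 3 and 0 without repeated reads. All 8 of these Mtor windows also held more input reads in FC, beyond the difference in library totals. Examples are 45 in FC against 21 in CON at one and 15 against 8 at another, so the input libraries differed in the same direction. With all reads, Pik3cd had 4 and 2 of 54 tested, Pik3ca 1 and 5 of 77 and Rptor 3 and 2 of 295. Rheb had 1 and 3 of 46 and Tsc1 2 and 1 of 56, while Ddit4 (8 tested) and Tsc2 (42 tested) had none. The Pik3cd window with the most reads among those higher in FC, chr4:149049001-149050000, lies over an exon just downstream of the third start. It held 49 reads in FC and 19 in CON, a log2 ratio of 1.55 (0.76 to 2.40). Most of this window lies within 1 kb of that start, so it shares reads with the counts given above for the start. It held 1 and 6 IgG-IP reads and 31 and 9 input reads, so the input libraries differed in the same direction. Without repeated reads it held 42 and 17. At Rheb the window chr5:24350001-24351000 is centred 2.06 kb upstream of the start, within the promoter already counted above. It held 15 reads in FC and 39 in CON, with 21 input reads in each group. In RPKM that is 0.460 of input for FC against 0.592 for CON, so input was also lower in FC there. Without repeated reads this window was no longer among those 2-fold lower.

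**Figure D4:**
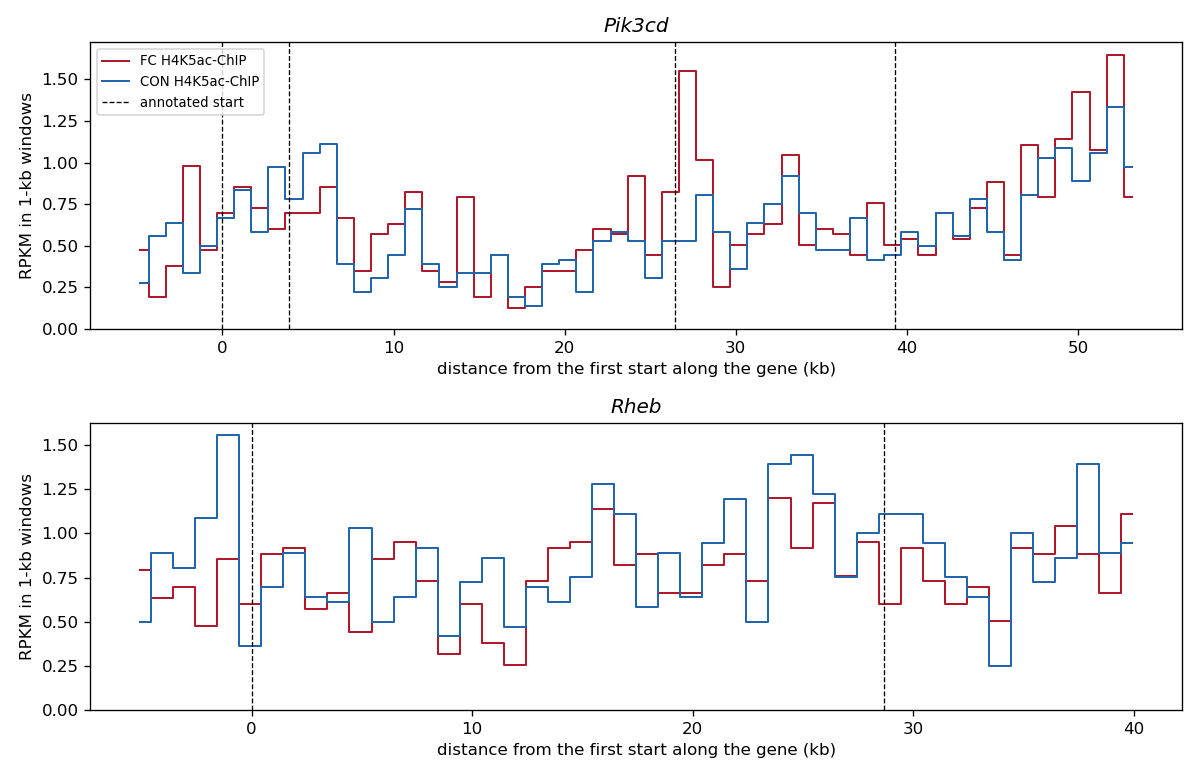
H4K5ac-ChIP density (RPKM) in fixed 1-kb windows along Pik3cd (top) and Rheb (bottom), by distance from the first start, with dashed lines at annotated starts. In Pik3cd the FC library stands above CON next to the start at 26.5 kb (49 against 19 reads) and both are high towards the end of the gene, and in Rheb the CON library stands above FC just upstream of the first start.

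The wider pathway was read from a list of 81 genes in 9 roles that includes the 8 members, and all 81 were found. Over IgG-IP in gene bodies, 68 of 80 with enough reads were called in FC (85%, against 58% of protein-coding genes). In CON 70 of 79 were called (88.6%, against 53.7%). The like-GC median was not taken off these ratios. The list's median log2 ratio was 1.01 in FC and 0.88 in CON, against 0.73 and 0.64 over protein-coding genes. The genes named here are the ends of each role by the mean of FC and CON, and in either group alone another gene may lie beyond them. By that mean the highest were Mlst8, a subunit of both mTOR complexes, with 2.57 in FC and 1.81 in CON, and Pik3r2, a PI3K regulatory subunit, with 2.41 and 1.89. The lowest were Inpp4b, a phosphoinositide phosphatase, with -0.46 and -0.37, Erbb4, a neuregulin receptor, with -0.22 and -0.26, and Pik3cg, the leukocyte subunit p110-gamma, with 0.06 and -0.30. By the mean Akt2 was the highest of the AKT and PDK1 genes (1.64 and 1.68), although Akt1 was higher in FC (1.96). Among TSC, RHEB and stress genes the means ran from those of Prkaa2 (0.68 and 0.70) to those of Stk11 (1.89 and 1.26), Prkaa2 encoding a catalytic subunit of AMPK and Stk11 its upstream kinase LKB1. Rragb and Lamtor1, of the Rag GTPases and their Ragulator anchor, had 0.45 and 0.40 and 0.81 and 2.78. In that role the gene body log2 ratio of FC over CON in IgG-IP reached 1.96. Lamtor1 was not called between the groups for H4K5ac-ChIP, so the gap between its FC and CON values lies mostly in the mock libraries. Rps6kb1, the S6 kinase, and Rps6, its ribosomal substrate, had 0.55 and 0.64 and 1.55 and 2.31. Lowest by the mean in the mTOR complexes was the inhibitor Deptor with 0.64 and 0.63, highest among receptors was Igf1r with 1.17 and 1.19, and Pik3c2b, a class II PI3K, had 1.58 and 1.48. Pik3r5 (0.77 and 0.50) was the lowest regulatory subunit, and Inpp5d, the phosphatase SHIP1, the highest phosphatase (1.19 and 1.05).

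Between the groups, 3 of 81 gene bodies were called higher in FC (3.70%, against 8.98% of protein-coding genes) and 2 lower (2.47%, against 3.08%), and the median was 0.02 against 0.04. The higher ones were Mlst8 with 0.38 (296 reads in FC, 259 in CON), Pik3r2 with 0.36 (300 and 266) and Rraga with 0.36 (45 and 40). Their input ratios were 0.86, 0.52 and 0.30. The call of Rraga rests on about as few reads as the Ddit4 gene body, which could not be told from no difference. The lower ones, Lamtor5 with -0.54 (80 and 132) and Rragc with -0.32 (312 and 444), belong with Rraga to the Rag and Ragulator group that brings mTORC1 to the lysosome, and had input ratios of -0.33 and 0.23. In promoters 7 were called higher (8.64%, against 15.4%) and 6 lower (7.41%, against 9.06%). Prkaa2 had the highest ratio, 0.80 (156 reads in FC, 102 in CON), and 5 of the other 6 were Rragb (0.65), Pik3c3 (0.60), Igf1r (0.42), Akt1 (0.41) and Prr5 (0.39). Their input ratios were 0.24 for Prkaa2, -0.32 for Rragb, 0.33 for Pik3c3, -0.42 for Igf1r, 0.72 for Akt1 and 0.82 for Prr5. As not every gene called is named, the names do not give the direction of a role. The lower ones were Inpp5d (-0.58; 64 and 109 reads), Ddit4l (-0.54; 87 and 144), Rheb (-0.54), Pik3cb (-0.43), Inpp4a (-0.41) and Gsk3b (-0.36). Ddit4l is the paralogue of Ddit4. The input ratios were 0.86 for Inpp5d, -0.58 for Ddit4l, 0.46 for Pik3cb, -0.05 for Inpp4a and -0.02 for Gsk3b. With all reads and promoters of 5 kb each of these 4 shares was below that of all genes, but read numbers were not matched. The promoter calls were spread over 7 of the 9 roles. With promoters of 2 kb, 21 genes of the list were higher and 12 lower, where 24.9% and 12.3% of protein-coding promoters were, so at that length the shares were not below. With 1 read per position and strand, 1 gene body of the list was higher and 1 lower, and the share of all genes was not counted at that setting.

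**Figure D5:**
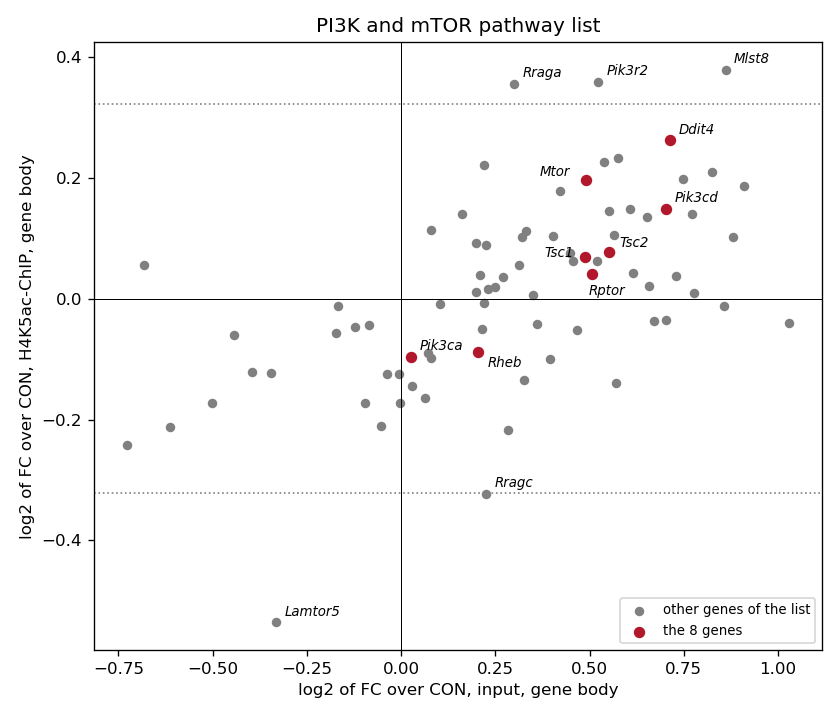
Gene body log2 ratio of FC over CON for H4K5ac-ChIP (vertical axis) against that for input (horizontal axis), for the 81 genes of the pathway list, with the 8 genes in red and dotted lines at the log2 limit of 0.32. Input ratios spread from -0.73 to 1.03 while H4K5ac-ChIP ratios stay between -0.54 and 0.38, and the labelled grey points are the 5 genes called.

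By the pattern of gene body densities over the 6 libraries, the protein-coding gene closest to Pik3ca was Lyrm4, with a root mean square log2 difference of 0.04. For Pik3cd it was Hrk (0.04), for Tsc1 March10 (0.03), for Tsc2 Tbc1d24 (0.04), for Rheb Med15 (0.03), for Mtor Mllt1 (0.04), for Rptor Pgbd5 (0.03) and for Ddit4 Cyb5d1 (0.13). From 17118 to 17120 genes with at least 100 H4K5ac-ChIP reads were compared for each, and Ddit4, with the fewest reads, had the least close one.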

How the data were processed

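Chromatin from hippocampus was immunoprecipitated with an antibody to H4K5ac or with IgG, or kept as input, and the fragments were sequenced on a SOLiD system by the authors. Hippocampal samples of each group were cross-linked individually, and each group and antibody has 1 file. Whether a library pools animals or comes from a single one is not given in the sources used here. The age is that of the labels, and the study's methods give a range of ages. Reads were aligned to mm9 by the authors with Bioscope and deposited as BED records, 1 per aligned read, without normalization. The score in each deposited record is the mapping quality, from 4 to 100, and aligned spans were 25 to 50 bp. Some reads may have more than 1 possible place in the genome. Library totals ranged from 14549689 to 45673239 reads, and 11.5% to 17.8% repeated the position and strand of another.

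Samples were grouped by their labels. Reads that overlapped a gene body or promoter by at least 1 base were counted in each library, whatever their score or strand, in Python 3.11.15 (pandas 2.3.3, NumPy 2.4.6), intervals came from SciPy 1.17.1 and figures from matplotlib 3.10.9. Genes were those of the GENCODE annotation of mm9 (NCBIM37), which matches the build of the files, and coordinates are 1-based. RPKM has an exact Poisson interval. Ratios of 2 libraries were scaled by library totals and have an exact binomial interval. A ratio was called at 1.5-fold over IgG-IP or input, a log2 ratio of 0.32 for FC over CON and 2-fold in 1-kb windows (20 reads or more). The like-GC median is that of protein-coding genes in the same step of 1% of GC content. Library totals include reads anywhere in the genome. The counting and the ratios were tested on simulated data.

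The members and lists were chosen with earlier results of these data known. Named beyond the members are genes of the list past that limit for FC over CON, the highest and lowest over IgG-IP in each role, the closest gene of each member and genes that overlap one, and a few of these are not reported here. Alternatives are given at the end. Sequences come from RefSeq (GRCm38.p6).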

Additional observations from a re-analysis of the deposited data

How the results depend on the processing

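The limits are those of single libraries: intervals cover counting error, not animals, and Ddit4 (39 and 37 gene body reads) and promoters of 79 to 220 reads could show only large differences. No paired analysis was possible because each group and antibody has 1 library. No member's FC over CON call over the gene body changed with 1 read per position and strand, read midpoints, a score of at least 20, other library totals, like-GC medians or without bases shared with another gene, and the Rheb promoter stayed past the limit as lower in FC in all 6 alternatives, from -0.45 to -0.68.

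Values that moved follow. Except where given above, the share of all genes called under an alternative was not counted. A changed count of members or list genes is thus not by itself a result about them. Summed gene body values rest largely on Rptor, which alone held 9487 of 18523 H4K5ac-ChIP reads in FC and 10488 of 20224 in CON. Of the alternatives, 1 read per position and strand lowered the summed log2 ratio over IgG-IP to 1.19 (FC, from 1.29) and 1.08 (CON, from 1.16), gave a summed ratio over input of 0.90 in CON (0.94), 1 member called over input in FC in place of 2, and in the wider list 1 gene body called higher and 1 lower in place of 3 and 2. Chosen after seeing the data, the same change gave 10 windows of 1 kb at least 2-fold higher in FC in place of 19. Totals taken outside the 10% of 10-kb windows with the most reads gave summed ratios of 1.45 (FC) and 1.31 (CON) over IgG-IP and of 0.69 (0.54 with all reads) and 1.11 over input, 6 members called over input in FC, 1 gene body of the list called lower, summed gene body densities of 1.19 RPKM in FC (0.890) and 1.12 in CON (0.854) and promoter densities of 1.14 in FC (0.855) and 1.18 in CON (0.898). Less the like-GC median, 1 member was called over IgG-IP in each group and 0 over input in each. Over gene bodies, Pik3cd and Ddit4 over IgG-IP in CON turned to -0.027 and -0.031, and Ddit4 over input in CON to -0.012. Pik3cd over input turned to -0.14 in FC and -0.09 in CON, and Tsc2 and Rptor for FC over CON to -0.04 and -0.03. Among promoters the sign changed for Pik3cd (FC over CON and over input in CON) and Rptor (over IgG-IP and over input in FC). It also changed for Pik3ca over IgG-IP in CON. For FC over CON, 2 promoters were lower in FC in place of 1. Less the input ratio, 5 gene bodies were lower in FC and the summed ratio was -0.40 in place of 0.06, and less the IgG-IP ratio 1 was higher and the summed ratio was 0.13. Scores of at least 20 gave 0.923 and 0.882 RPKM over the summed gene bodies, 2 promoters lower in FC and 1 list gene body lower. Promoters of 2 kb gave 2 members higher and 2 lower, 0.939 RPKM in FC, and 21 list genes higher and 12 lower in place of 7 and 6. With windows of 2 kb, 1 member in place of 3 had its densest window within 2 kb of a start. The cause of these shifts was not tested, beyond the smaller number of reads or bases that an alternative leaves.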
